A study of Mus musculus with 4 samples.

Results

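The transcript response of Xiap knockout mouse embryonic fibroblasts to tumour necrosis factor (TNF) was read from 1 array of TNF-treated cells and 1 array of unstimulated cells. All non-control probe sets with a single gene symbol were taken, which gave 10833 of the 12488 probe sets on the array and 8251 genes. Both cultures were Xiap knockout fibroblasts grown to confluence. One was exposed to 20 ng/ml TNF for 4 h and the other received no treatment. Wild-type fibroblasts with and without the same exposure, 1 array each, complete the 4 samples and are set beside the knockout values here. The sources used here do not say whether the cells were primary or immortalised, how many embryos they came from or which part of Xiap had been removed. With 1 array a side there was no replicate and no test, so each fold change compares these arrays and not the conditions in general.

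TNF is an inflammatory cytokine that binds the receptor TNFR1 on fibroblasts. The receptor assembles a complex of Tradd, Traf2 and the ubiquitin ligases Birc2 and Birc3, which leads to the IKK kinases, the breakdown of IkB proteins and the entry of NF-kB into the nucleus. NF-kB switches on chemokine, adhesion and survival genes and also its own inhibitors, such as the genes of IkB-alpha (Nfkbia) and of A20 (Tnfaip3). When survival genes are not made, the same receptor can engage Fadd, caspase-8 and Bid and kill the cell. Xiap is an inhibitor of caspases and a ubiquitin ligase.

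Short stretches upstream of start sites are shown for 5 genes of this circuit that were higher with TNF in knockout cells, because each holds letters of the NF-kB consensus. The sequences are from RefSeq promoter windows of the build GRCm38.p6, 5′ to 3′ on the gene's own strand, and capitals mark the consensus matches on either strand. They lie at chr12:55492648-55492706 on the minus strand for Nfkbia, chr17:45555564-45555633 on the plus strand for Nfkbie, chr19:46304668-46304736 on the plus strand for Nfkb2, chr5:90891144-90891214 on the plus strand for Cxcl1 and chr11:53769971-53770013 on the plus strand for Irf1.
Nfkbia: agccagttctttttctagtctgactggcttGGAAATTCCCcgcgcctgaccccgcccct
Nfkbie: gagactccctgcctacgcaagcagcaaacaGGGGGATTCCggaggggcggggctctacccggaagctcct
Nfkb2: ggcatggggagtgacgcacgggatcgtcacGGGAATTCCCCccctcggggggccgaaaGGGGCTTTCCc
Cxcl1: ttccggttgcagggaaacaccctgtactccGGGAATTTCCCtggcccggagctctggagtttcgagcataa
Irf1: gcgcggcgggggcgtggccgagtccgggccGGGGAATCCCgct
In Nfkb2 there are 3 matches, 2 of which overlap at a shift of 1 base, and the 2 matches in Cxcl1 overlap in the same way. A match is a description of letters, and binding was not measured.

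Letters of 3 motifs were counted on both strands of the RefSeq windows, which run from 250 bases before to 50 bases after a start site. The NF-kB consensus was present for 23 of 68 genes at least 2-fold higher with TNF that had a window (33.8%), against 590 of 4749 measured genes with a window (12.4%) and 8.46% of all 32851 windows in the table. The AP-1 site TGANTCA was present for 15 of the 68 (22.1%), against 6.55% of measured genes and 7.81% of all windows. The core of the interferon-stimulated response element, GAAANNGAA, was present for 13 of the 68 (19.1%), against 8.17% of measured genes and 8.56% of all windows. Of 24 genes at least 4-fold higher with a window, 8 held the NF-kB consensus, 8 the AP-1 site and 7 the interferon core. Of 18 lower genes with a window, 1 held the NF-kB consensus, 1 the interferon core and 0 the AP-1 site. Some genes have several windows, on average 1.29 for measured and 1.19 for higher genes, and a gene was counted once if any window held the letters. Matches of different motifs may overlap and were counted separately. Gbp2 and Cxcl10 held all 3 motifs, Gbp3 and Gbp7 the interferon core alone, and Icam1, Birc3, Psmb8 and Psmb10 none within their window.

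Values are MAS5 signals, which are linear probe set brightnesses, and a signal is compared across arrays only for the same probe set. A floor of 92.5, the 40th percentile of all pooled signals, was set under dim values, so that a fold with 1 array at or below it is a bound and is written as at least N-fold. The median signal was 179 without and 173 with TNF in knockout cells and 183 and 151 in wild-type cells, and 5426 to 5798 genes were above the floor per array. The ratio of 3' to 5' control probe sets, which reflects RNA integrity, was 1.10 without and 1.17 with TNF for actin in knockout cells and 0.778 and 0.815 for Gapdh. Of 17 fibroblast markers, 15 were above the floor in unstimulated and 14 in TNF-treated knockout cells, with summed signals of 89334 and 89055. Col1a1, a type I collagen chain gene, was at 22927 and 21983, whereas Dcn, the decorin gene, was near the floor at 124 and 115 (15414 and 13693 in wild-type cells), Lum and Fap were below it, and the probe set of Vim was at 94.5 and 50.7. The macrophage genes Adgre1, Ptprc and Itgam and the endothelial genes Pecam1, Cdh5, Tek, Tie1 and Vwf were below the floor on both knockout arrays. Of 12 macrophage markers, however, 6 were above it without and 5 with TNF. Among them were Csf1r at 373 and 293 and Fcgr1 at 162 and 123, each with a second probe set below the floor. Summed macrophage markers were at 3211 and 3261, of which Cd14, which fibroblasts can also express, made up 2187 and 2402. Summed markers were at 581 and 553 for lymphocytes, 760 and 699 for epithelium and 960.3 and 845 for skeletal muscle. They were at 872 and 782 for cartilage and 777 and 672 for fat. Each of these sums includes members below the floor, so no direction is read from them. Above the floor without and with TNF were 3 and 3 of 8 lymphocyte, 1 and 1 of 8 epithelial and 5 and 4 of 9 muscle markers. The same counts were 2 and 2 of 6 for cartilage and 1 and 1 of 5 for fat. Cd4 was at 210.5 and 198.8, Cdh1 at 530.5 and 489.5 and Myod1 at 165.9 and 147.9. The endothelial sum was 299 and 459, with Flt1 as its only member above the floor with TNF. Xiap itself was at 180.5 without and 120.1 with TNF in knockout cells and at 239 and 126 in wild-type cells. Its probe sets do not check the knockout, because the removed part of the gene is unknown here.

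TNF-treated knockout cells differed from unstimulated knockout cells mainly by genes that were higher. In such bulk RNA, fewer cells with a transcript and less of it per cell cannot be told apart. Of 5868 measured genes, meaning those above the floor on at least 1 of the 2 arrays, 87 (1.48%) were higher with TNF by 2-fold or more, and 24 (0.409%) were lower by as much. At least 4-fold higher were 32 genes (0.545%), and 0 were 4-fold lower. On both arrays above the floor were 65 of the higher and 20 of the lower genes, and the other 22 and 4 are bounds. The median log2 difference over all measured genes was -0.04, with quartiles of -0.19 and 0.11, and 93.2% of them lay within 1.5-fold. Divided into 5 equal groups by brightness, the higher genes numbered 10, 21, 13, 24 and 19 from the dimmest to the brightest, and the lower genes 8, 9, 1, 6 and 0. The counts turned on the floor: at the 20th percentile they were 191 and 166, and at the 60th percentile 55 and 7. No lower gene was among the brightest group, and 17 of 24 were among the dimmer 2 groups.

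**Figure D1:**
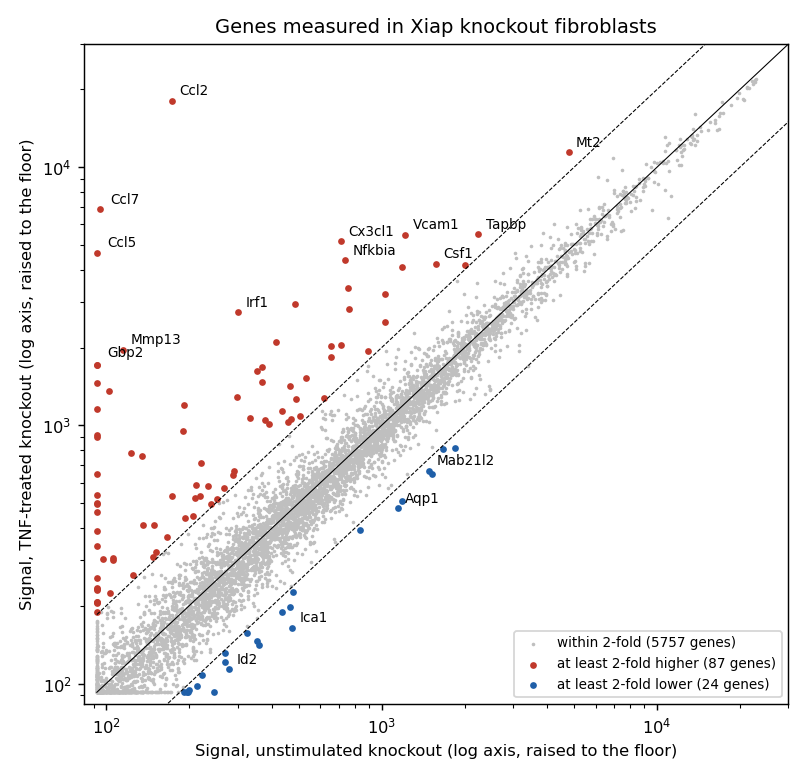
Signals of measured genes in unstimulated (x axis, log scale) and TNF-treated (y axis, log scale) knockout cells, raised to the floor of 92.5. Each point is a gene, the solid line marks equal signals and the dashed lines 2-fold, with 87 genes above and 24 below them; Ccl2 lies farthest above the line.

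The genes at least 2-fold higher came from 19 of the 20 chromosomes with measured genes, and chromosome X had 0 of 164. Over all measured genes the share was 1.48%, and a count of 0 among 164 genes is not read as a result. Chromosome 17 had 13 of 335 (3.88%), of which 9 were class I, transporter or immunoproteasome genes (H2-K1, H2-K2, H2-D1, H2-Q4, Tap1, Tap2, Tapbp, Psmb8 and Psmb9). Chromosome 13 had 5 of 193 (2.59%). Chromosome 11 had 13 of 526 (2.47%), among them all 4 CC chemokine genes past 2-fold. Chromosome 3 had 8 of 297 (2.69%), including the 4 guanylate-binding protein genes. Some of these neighbours have near-identical sequences, and the array may not separate them.

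The CC chemokines, secreted proteins that draw monocytes and lymphocytes, led the response. Ccl2, the main monocyte attractant, had a signal of 173 without and 18083 with TNF in knockout cells, 104-fold higher. In wild-type cells Ccl2 was at 1439 and 18414, so both TNF-treated arrays were close and the unstimulated knockout array was the low one. Ccl7, the neighbour of Ccl2 on chromosome 11, was at 94.7 and 6875 in knockout cells (72.6-fold) and at 406 and 7577 in wild-type cells. Ccl5, an attractant of T cells, was at 9.5 and 4665.5 in knockout cells, at least 50.4-fold higher, and at 140.1 and 835 in wild-type cells, so here the TNF-treated knockout array stood highest of the 4. Ccl9 was at 102 and 1353 in knockout cells (13.3-fold) against 182 and 684 in wild-type cells, the same order as Ccl5. Of the 6 measured CC chemokine genes 4 passed 2-fold, each higher with TNF, with a median log2 difference of 4.69 against -0.04 over all measured genes. Ccl11 and Ccl12, which lie near Ccl2 and Ccl7, were below the floor on both knockout arrays, at 3.4 and 6.7 for Ccl11 and 13.4 and 44.1 for Ccl12.

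CXC and CX3C chemokines, which draw neutrophils, lymphocytes or monocytes, were higher in 4 of 5 measured cases, with a median log2 difference of 2.32. Cx3cl1, the gene of the membrane-bound chemokine fractalkine, was at 714 and 5159 (7.23-fold), although its second, dimmer probe set gave 70.9 and 100.2. The neutrophil attractant Cxcl1 was at 486 and 2956 (6.09-fold), and its second probe set was 4.74-fold higher. In wild-type cells Cxcl1 was at 153 and 3157, a larger difference from a lower start. Cxcl5, also a neutrophil attractant, was at 190.5 and 949.7 in knockout cells (4.99-fold) against 25.4 and 196 in wild-type cells, so each knockout signal lay above its wild-type counterpart. Cxcl10, an interferon-inducible attractant of T cells, was at 4.1 and 235 in knockout cells, at least 2.54-fold higher, and at 51.3 and 1811 in wild-type cells. Cxcl12, the constitutive stromal chemokine, was at 2446 and 2157 in knockout cells and at 10849 and 8214 in wild-type cells, lower by less than 2-fold in each pair.

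**Figure D2:**
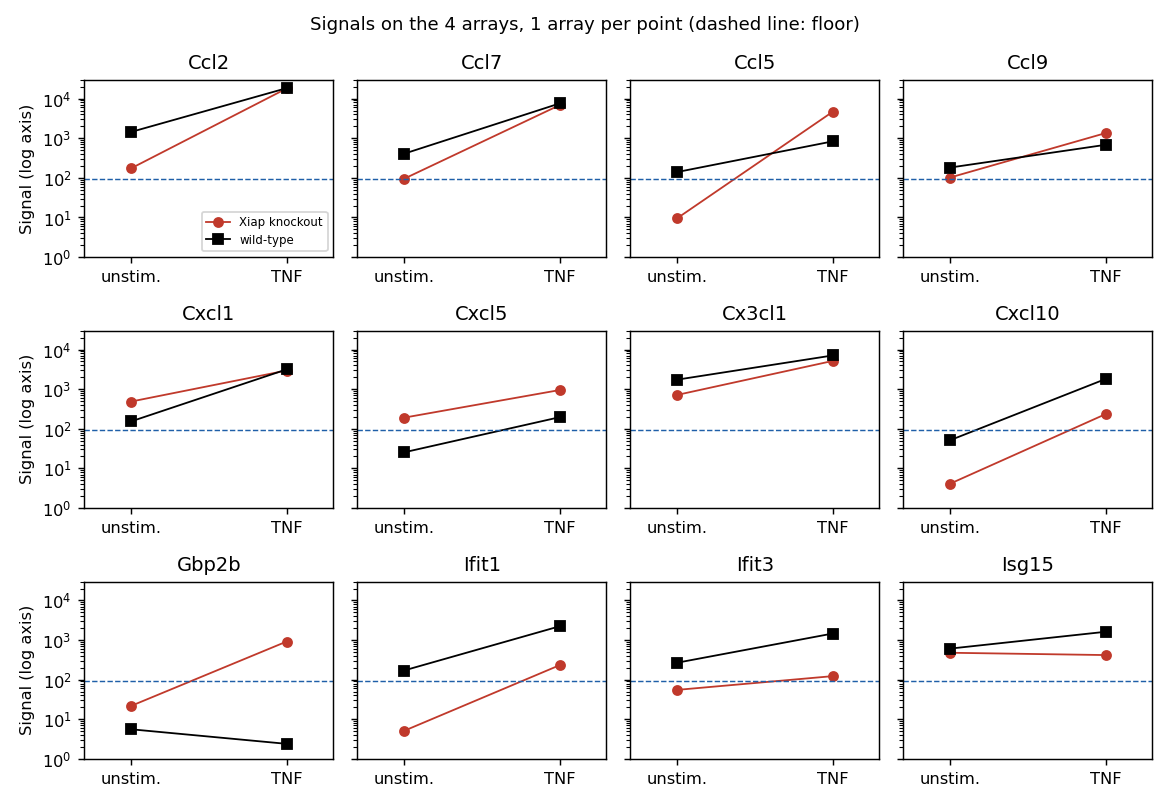
Signals of 8 chemokine genes and 4 interferon-inducible genes on the 4 arrays (y axis, log scale; 1 array per point; circles, Xiap knockout; squares, wild-type; dashed line, floor). Ccl2 and Ccl7 meet at similar TNF-treated signals from different starts, Ccl5 and Ccl9 cross, and Isg15 is nearly level in knockout cells.

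Members of the NF-kB system itself were higher with TNF in the knockout cells. Relb, the subunit of the non-canonical pathway, was at 298 and 1292 (4.34-fold), and Nfkb2, the precursor of its partner subunit, at 466 and 1414 (3.04-fold). Rela, the main activating subunit, was at 3044 and 4643, a log2 difference of 0.61. Rel was below the floor on both arrays. The measured subunits therefore had 2 of 3 members at least 2-fold higher and a median log2 difference of 1.60, beside 3 of 3 and 1.92 in wild-type cells.

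Among the inhibitors and feedback genes 6 of 8 were past 2-fold in knockout cells, all of them higher, with a median log2 difference of 1.97 (7 of 8 and 1.92 in wild-type cells). Nfkbia was at 738 and 4357 (5.91-fold), and its second probe set was 5.56-fold higher. Wild-type Nfkbia was at 585 and 3626, also higher with TNF. Nfkbie, the gene of IkB-epsilon, was at 192 and 1196 (6.22-fold) in knockout and at 253 and 985 in wild-type cells. Bcl3, a nuclear IkB protein, was at 36.6 and 499.8 and so at least 5.40-fold higher. Tnfaip3, the gene of the ubiquitin-editing enzyme A20, was at 11.2 and 461 and at least 4.98-fold higher, against 12.1 and 561 in wild-type cells. Tnip1, which encodes an A20-binding protein, was at 657 and 2031 (3.09-fold), and Nfkbib at 378 and 1047 (2.77-fold). Nfkbiz, with 101.5 and 197, stayed just under 2-fold, and Otud7b was at 199 and 216.

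No gene of the lists upstream of NF-kB passed 2-fold, which for lists of this size is near the background of 1.48% higher and 0.409% lower over all genes. In the TNF receptor complex, 0 of 10 measured genes passed 2-fold in either direction and the median log2 difference was 0.08. Birc2 and Birc3, also part of that complex, were counted with the inhibitors of apoptosis below, where Birc3 passed 2-fold. The receptor gene Tnfrsf1a was at 1028.5 and 1039.6, and Traf2, an adaptor gene, had the largest difference at 473 and 836 (log2 0.82). Tank, a regulator of the TBK1 kinase, was at 434 and 679. Tradd, the adaptor of the receptor's death domain, was at 1803 and 1437 in knockout and at 1225 and 2411 in wild-type cells, on opposite sides of equality. Of 9 measured IKK and upstream kinase genes 0 passed, with a median of -0.22, and Tab2 was at 2589 and 1941. TNF ligand genes were mostly dim, and the 2 measured, Lta and Tnfsf11, did not pass.

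In the death and survival genes 3 members stood out. Fas, a death receptor gene, was at 38.2 and 649.7 in knockout cells, at least 7.02-fold higher, and at 18.7 and 748 in wild-type cells. Bid, which carries the death signal from caspase-8 to mitochondria, was at 352 and 1631 in knockout cells (4.63-fold) and at 495 and 1913 in wild-type cells. Birc3, the ubiquitin ligase cIAP2, was at 52.6 and 342 and at least 3.70-fold higher, against 80.2 and 429.5 in wild-type cells. All 3 were thus higher with TNF in the wild-type pair as well.

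No other measured member of these lists passed 2-fold, beside 1.48% higher and 0.409% lower over all measured genes. Counts of 0 or 1 in such short lists are not read as a result about these families. In the inhibitor of apoptosis list 1 of 6 measured genes (Birc3) passed 2-fold. Birc2, which encodes cIAP1, was at 266.5 and 506 in knockout cells (log2 0.93) and at 223 and 485 in wild-type cells (log2 1.12). Xiap had a log2 difference of -0.59 in the knockout pair. Of 9 measured caspase and apoptosome genes 0 passed, near the share over all genes. Casp4, an inflammatory caspase gene, was at 37 and 159. That is at least 1.72-fold higher, a bound that does not place it within 2-fold. Casp8 was at 131 and 148. In the Bcl-2 family Bid was the only 1 of 12 to pass. Bcl2l11, the gene of the pro-death protein Bim, had the most negative difference at 1056 and 571 (log2 -0.89), and wild-type Bcl2l11 was at 884 and 548. The survival genes Bcl2l1 (940.5 and 943) and Mcl1 (966 and 939) were almost level.

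**Figure D3:**
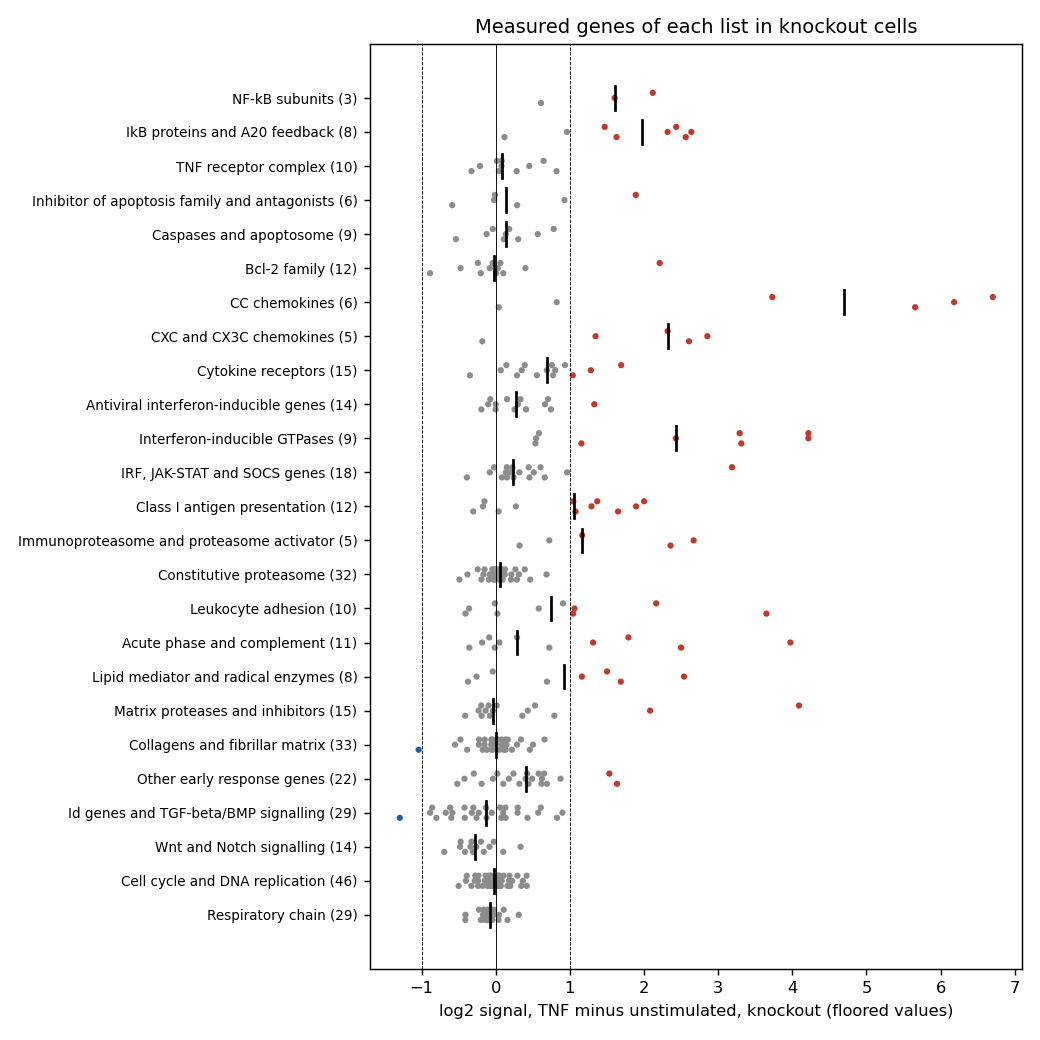
Log2 differences, TNF minus unstimulated, of the measured genes of each list in knockout cells (x axis; floored values), with the number measured in brackets. Grey points lie within 2-fold, red points at least 2-fold higher and blue points at least 2-fold lower, and black bars are medians; the chemokine, IkB and GTPase medians lie to the right and the proteasome, collagen, cell cycle and respiratory chain medians near 0.

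Interferon-inducible genes passed 2-fold more often in the GTPase list than in the antiviral list below, with exceptions in both. Of 9 interferon-inducible GTPase genes, whose products defend cells from within, 6 passed 2-fold, all higher in TNF-treated knockout cells, with a median log2 difference of 2.43, and all 6 are bounds because the unstimulated signals lay below the floor. Gbp2 was at 13.3 and 1720.1 and Gbp3 at 62 and 1719.9, each at least 18.6-fold higher. Ifi47 was at 82.5 and 904.5 (at least 9.78-fold), Gbp7 at 89 and 498 (at least 5.38-fold) and Igtp at 68.9 and 206 (at least 2.23-fold). The wild-type pair had all 8 of its measured GTPase genes at least 2-fold higher. The 3 genes not past 2-fold in knockout cells were Irgm1 at 516 and 773, Irgm2 at 162 and 236, and Iigp1 at 14 and 134. In wild-type cells Irgm1 was at 141 and 606, Irgm2 at 260 and 583.5, and Iigp1 at 12.7 and 355. Unstimulated Iigp1 was below the floor in both genotypes, so its folds are bounds and its knockout fold may be 2 or more. Gbp2b was at 21.7 and 918 in knockout cells (at least 9.93-fold) and at 5.6 and 2.4 in wild-type cells, below the floor on both. Guanylate-binding protein genes are near-identical in part, so the split of signal among them is uncertain.

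The antiviral interferon list had 1 of 14 measured genes at least 2-fold higher in knockout cells and a median log2 difference of 0.28. In the wild-type pair 9 of 17 were higher with a median of 1.07. With the floor at the 20th percentile 4 of 20 measured antiviral genes passed in knockout cells. Ifit1, which binds foreign RNA, was at 5.1 and 232 in knockout cells, at least 2.51-fold higher, and at 170.4 and 2230.3 in wild-type cells. Isg15, a ubiquitin-like modifier, was at 478 and 418 in knockout and at 608 and 1619 in wild-type cells. Ifit3 was at 55.2 and 123 in knockout and at 268 and 1461 in wild-type cells. Rsad2 was below the floor on both knockout arrays, at 8 and 10, and at 9.3 and 545 in wild-type cells. For these genes the TNF-treated wild-type array was the brightest of the 4 and the TNF-treated knockout array lay below it, a difference that could not be tested with 1 array per combination.

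Irf1, a transcription factor gene that answers both NF-kB and interferon, was at 302 and 2748 in knockout cells (9.10-fold) and at 482 and 2566 in wild-type cells. It was the only 1 of 18 measured genes to pass in the list of interferon regulatory factors, JAK kinases, STATs and SOCS genes. Socs1, a feedback inhibitor of cytokine receptors, was next at 257 and 500.4, just under 2-fold. Irf7 (182 and 193) and Irf9 (393 and 386) were nearly level. Among 15 measured cytokine receptor genes 3 passed and 0 were lower, with a median of 0.69. Ifnar2, a subunit of the type I interferon receptor, was at 222 and 716 (3.23-fold), although its second probe set gave 464 and 588 (1.27-fold). Il15ra was at 219 and 533 (2.43-fold) and Osmr, the oncostatin M receptor gene, at 619 and 1271 (2.05-fold).

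Antigen presentation genes were among those higher with TNF. Among class I genes, which display peptides to T cells, 7 of 12 measured members were at least 2-fold higher, with a median log2 difference of 1.06 (6 of 12 and 1.01 in wild-type cells). H2-K2 was at 369 and 1475 (4.00-fold), H2-D1 at 761 and 2824 (3.71-fold), H2-K1 at 1028 and 3224 (3.14-fold) and H2-Q4 at 491 and 1268 (2.58-fold). The H2 probe sets are shared in part between family members, so these values may not be separate. The peptide transporter genes Tap1 (240.1 and 496) and Tap2 (125 and 263.5) were 2.07-fold and 2.11-fold higher. Tapbp, which encodes the loading factor tapasin, was at 2246 and 5496 (2.45-fold), and its other probe sets were 2.27-fold and 1.10-fold higher. With log2 of the signal plus 50, Tap1 (log2 0.912) and Tap2 (log2 0.840) fell short of 2-fold. With the mean of all probe sets, Tap1 (log2 0.523) and Tapbp (log2 0.870) did. Tap1 also fell short with the floor at the 60th percentile (log2 0.771). B2m, the light chain of class I, was bright and nearly level at 10219 and 10501.

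The immunoproteasome, whose subunits replace standard ones to cut peptides for class I, showed 3 of 5 measured genes past 2-fold. Psmb8 was at 123 and 784 in knockout cells (6.36-fold) and at 241 and 801 in wild-type cells. Psmb10 was at 412 and 2113 (5.12-fold) against 686 and 2448 in wild-type cells. Psmb9 was at 12.9 and 207.5, at least 2.24-fold higher, and was below the floor in wild-type cells, at 16.6 and 90. Of 32 measured standard proteasome genes 0 passed 2-fold, near the background of 1.48% higher and 0.409% lower over all genes, with a median of 0.05 and a range of -0.49 (Psma7) to 0.68 (Psmd10). Among class II genes Cd74, the invariant chain gene, was at 369 and 1684 (4.56-fold) and was the only 1 of 5 to pass. H2-Aa and H2-Ab1, the class II chains themselves, were below the floor on all 4 arrays.

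**Figure D4:**
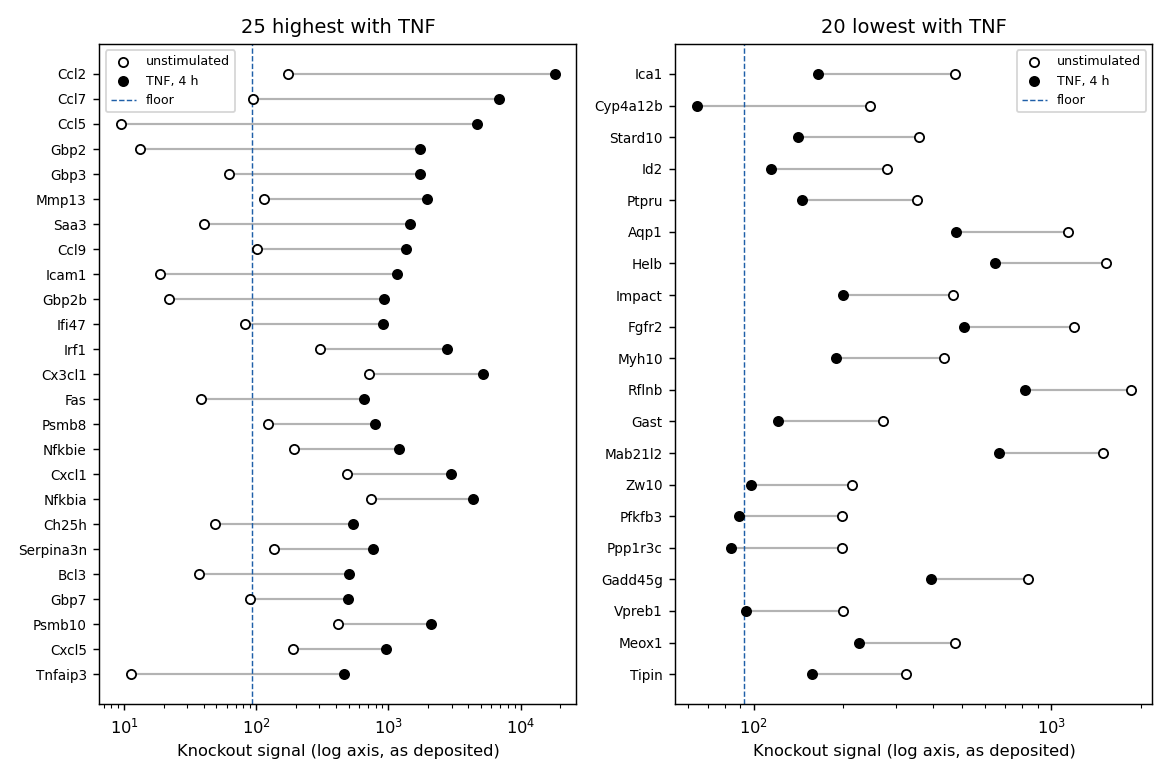
Signals of the 25 highest and the 20 lowest genes in unstimulated (open circles) and TNF-treated (filled circles) knockout cells (x axes, log scale; 1 array per point; dashed line, floor). Several of the highest genes start below the floor, among them Ccl5 (9.5), Tnfaip3 (11.2) and Gbp2 (13.3), whereas most of the lowest genes are above it on both arrays.

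Genes that let leukocytes attach to stromal cells were higher in 4 of 10 measured cases, with a median log2 difference of 0.74. Icam1, a ligand of leukocyte integrins, was at 18.6 and 1162 in knockout cells, at least 12.6-fold higher, and at 21.8 and 835 in wild-type cells. Vcam1, another integrin ligand, was at 1220 and 5466 (4.48-fold), and its other probe sets were 3.76-fold and 4.67-fold higher. In wild-type cells Vcam1 was at 1518 and 11256, the highest of the 4 arrays. Cd47, the gene of a signal that restrains phagocytes, was at 2011 and 4195 (2.09-fold, and 2.03-fold in its second probe set), and Cd44, a hyaluronan receptor gene, at 252 and 519 (2.06-fold). Flt1, a receptor of vascular endothelial growth factor, was at 30.3 and 256, at least 2.76-fold higher, but its second probe set was above the floor on both arrays, at 200 and 337, and did not pass (1.69-fold). Defining endothelial genes such as Cdh5 and Pecam1 stayed below the floor.

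Of 11 measured acute phase and complement genes 4 passed 2-fold and were higher with TNF in knockout cells. Saa3, a serum amyloid gene made by stromal cells, was at 40.2 and 1454, at least 15.7-fold higher, against 123 and 924 in wild-type cells. Serpina3n, a protease inhibitor gene, was at 135 and 764 (5.65-fold) in knockout and at 94.2 and 188 in wild-type cells. Ptx3, a soluble pattern-recognition protein gene, was at 1186 and 4097 (3.45-fold) in knockout and at 727 and 9014 in wild-type cells. Saa2 was at 84.8 and 229.7, at least 2.48-fold higher, but its second probe set had 168 without and 58.2 with TNF, so its direction is uncertain. Lcn2 (137 and 129) and Serping1 (93.4 and 79.4) were not among the higher genes.

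In the enzymes of lipid mediators and radicals 4 of 8 measured genes passed, with a median log2 difference of 0.93. The count was 7 of 14 with the floor at the 20th percentile and 1 of 7 at the 60th. Ch25h, which makes 25-hydroxycholesterol, was at 48.9 and 537 in knockout cells, at least 5.81-fold higher, and at 109 and 3355.5 in wild-type cells. Cyp7b1, which breaks that oxysterol down, was at 106 and 300.3 (2.83-fold, and 3.87-fold in its second probe set) in knockout and at 287 and 383 in wild-type cells. Ptges, a prostaglandin E synthase gene, was at 166 and 371 (2.24-fold), and mitochondrial superoxide dismutase, Sod2, was at 333 and 1071 (3.22-fold). Ptgs2, the inducible cyclooxygenase gene, was at 57.3 and 85.8, below the floor on both knockout arrays, and at 23.3 and 780.5 in wild-type cells.

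Secreted signals other than chemokines were few. Csf1, the macrophage growth factor gene, was at 1571 and 4235 (2.70-fold) and was the only 1 of 7 measured cytokine genes to pass. Il6 was below the floor on both knockout arrays, at 3.1 and 33.7, and at 5.8 and 431 in wild-type cells. Among growth factor genes Igfbp3, an insulin-like growth factor carrier, was at 173 and 534 (3.09-fold, and 3.48-fold in its second probe set). Fgfr2, a fibroblast growth factor receptor gene, was at 1188 and 509 (2.33-fold lower), while its other measured probe sets were 1.28-fold lower and, as a bound, 1.11-fold lower. Pdgfra was at 1359 and 1987.

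Matrix protease genes had 2 of 15 measured members at least 2-fold higher and a median log2 difference of -0.04. Mmp13, a collagenase gene, was at 115 and 1960.4 in knockout cells (17.0-fold) and at 348 and 1506 in wild-type cells. Mmp3, the stromelysin gene, was at 10.6 and 391 in knockout cells, at least 4.23-fold higher, and at 738 and 1891 in wild-type cells, so both wild-type arrays were above both knockout arrays. Mmp14 was bright and level at 8623.5 and 8703, and the inhibitor genes Timp1 (6587 and 8894) and Timp2 (5489 and 4125) were within 2-fold. Of 33 measured collagen and fibrillar matrix genes 0 were higher and 1 was lower, beside 1.48% and 0.409% over all measured genes. That gene, Thbs2, encodes the matricellular protein thrombospondin 2 and was at 1672 and 813 (2.06-fold lower), and in wild-type cells it was at 5009 and 4608. It fell just short of 2-fold with equal medians (log2 -0.993) and with log2 of the signal plus 50 (log2 -0.997). Has2, a hyaluronan synthase gene, was at 103 and 80.1 in knockout and at 109 and 462 in wild-type cells.

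Early response genes had 4 members past 2-fold in 2 lists, all higher with TNF, beside 1.48% higher over all genes. Fosl1, an AP-1 subunit gene, was at 149 and 411 (2.77-fold) and Junb at 391 and 1015 (2.60-fold, and at least 5.44-fold in its second probe set). They were 2 of 13 measured AP-1, ATF and Maf genes, while Jun was at 185.5 and 284 and Fos was below the floor on both arrays, at 46.6 and 49.7. In the list of other early genes 2 of 22 passed, with a median of 0.41 beside 11 of 22 and 1.06 in wild-type cells. These were Ier3, an immediate early survival gene, at 710.3 and 2054 (2.89-fold), and Phlda1 at 97.4 and 303 (3.11-fold). Egr1 was at 369.5 and 596 in knockout and at 518 and 2427 in wild-type cells. Cebpd, a transcription factor gene of the acute phase response, was at 891.5 and 1938.5 (2.17-fold) in knockout cells and at 1211 and 10227 in wild-type cells. Dusp1, a phosphatase gene that turns off MAP kinases, was at 653 and 1840.2 (2.82-fold) in knockout cells and at 1377 and 1388 in wild-type cells, almost level.

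Mt2, a metallothionein gene whose product binds zinc and copper, was at 4785 and 11444 (2.39-fold) in knockout and at 5817 and 8624 in wild-type cells. Slc11a2, an iron and metal transporter gene, was at 506 and 1091 (2.16-fold) and its second probe set 1.76-fold higher. Of the higher genes 21 belonged to no list, and those named next were chosen after their values were seen. Wdr92 was at 754 and 3407 (4.52-fold) in knockout and at 4195 and 18941 in wild-type cells, brighter in the latter on both arrays. Tnfaip2, a TNF-inducible gene, was at 530 and 1523 (2.87-fold), and Lbp, which carries bacterial lipopolysaccharide, at 210.5 and 522 (2.48-fold). S1pr3, a sphingosine phosphate receptor gene, was at 435.5 and 1140.2 (2.62-fold), and Ninj1, a membrane rupture protein gene, at 235 and 585 (2.49-fold). Plpp3, a lipid phosphatase gene, was at 106 and 307 (2.91-fold) in knockout and at 1521 and 1645 in wild-type cells. Fmo1, a flavin monooxygenase gene, was at 268 and 573 (2.13-fold) and did not reach the floor in wild-type cells.

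The 24 lower genes formed no list of their own, and 20 of them belonged to none of the lists. Id2, whose product blocks helix-loop-helix transcription factors, was at 279 and 114 (2.45-fold lower) in knockout cells and at 1384 and 383 in wild-type cells, lower with TNF in both pairs from very different levels. Id3 (1527 and 827, log2 -0.89) and Id1 (278.5 and 159.8, log2 -0.80) were lower by less than 2-fold, and Id4 was below the floor. In the whole list of Id, TGF-beta and BMP genes 0 of 29 were at least 2-fold higher and 1 was lower, with a median of -0.13. Over all measured genes 1.48% were higher and 0.409% lower by as much. Gadd45g, a stress-inducible growth arrest gene, was at 833 and 393 (2.12-fold lower) in knockout and at 202 and 164 in wild-type cells. Aqp1, a water channel gene, was at 1142 and 478.5 (2.39-fold lower) and Mab21l2, a developmental gene, at 1492 and 668 (2.23-fold lower). Neither Aqp1 nor Mab21l2 was above the floor in wild-type cells.

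Ica1 had the most negative log2 difference, at 474 and 164 (2.89-fold lower), but its second probe set was at 121 and 158, so its direction is uncertain. Stard10, a lipid transfer protein gene, was at 359 and 141 (2.55-fold lower) in knockout and at 516 and 209 in wild-type cells. Helb, a DNA helicase gene, was at 1529 and 648 (2.36-fold lower), and its second probe set was 2.18-fold lower. Rflnb, a regulator of actin crosslinking, was at 1850.4 and 818 (2.26-fold lower) in knockout and at 712 and 345 in wild-type cells, and Myh10, a non-muscle myosin gene, was at 436 and 189 (2.31-fold lower) and at 589 and 217. Ptpru, a receptor phosphatase gene, was at 353 and 146 (2.42-fold lower) in knockout and level in wild-type cells at 363 and 366. Cyp4a12b, at 245.5 and 64.4, was at least 2.65-fold lower and belongs to a family of near-identical genes. The remaining lower genes by the naming rule were Impact (2.34-fold), Gast (2.24-fold), Zw10 (2.18-fold), Pfkfb3 (at least 2.14-fold), Ppp1r3c (at least 2.13-fold), Vpreb1 (2.12-fold), Meox1 (2.10-fold) and Tipin (2.08-fold).

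Several lists of housekeeping or growth genes had 0 members past 2-fold in knockout cells, near the background of 1.48% higher and 0.409% lower. They were cell cycle and replication (46 measured, median log2 -0.03), respiratory chain (29, -0.08), oxidative stress and glutathione (21, -0.05), cholesterol and fatty acid synthesis (19, -0.16), glycolysis and hypoxia (18, 0.10), contractile genes (17, -0.04), endoplasmic reticulum stress (16, -0.02), heat shock (14, -0.09), CDK inhibitors and p53 genes (14, -0.12), and Wnt and Notch signalling (14, -0.29). Sod3, the extracellular superoxide dismutase gene, came nearest among them at 894 and 1704.5 (log2 0.93), and was at 203 and 135 in wild-type cells. Fzd2, a Wnt receptor gene, had the most negative difference of its list at 3146 and 1944 (log2 -0.69) in knockout and at 2096 and 960.4 in wild-type cells. In the wild-type pair the Wnt and Notch list had 4 of 17 measured members at least 2-fold lower, beside 2.61% of all genes measured there. Over all wild-type genes the lower count went from 154 to 68 with equal medians, and the list was not recounted that way. A difference between genotypes was not tested. The small leucine-rich proteoglycans had 0 of 5 past 2-fold and a median of -0.30, with Ogn, the gene of osteoglycin, at 9608 and 6823. Toll-like receptor and interleukin-1 signalling had 0 of 4 past 2-fold, and Myd88 was at 224 and 368.

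Most of the genes higher in knockout cells were also higher in the wild-type pair, which shares no array with the knockout pair. Of the 87 genes 66 were at least 2-fold higher in both, which is 75.9% of the knockout list and 42.3% of the 156 genes (2.64% of 5911 measured) at least 2-fold higher in wild-type cells. Another 18 were within 2-fold in wild-type cells at floored values, 0 were 2-fold lower and 3 (Gbp2b, Psmb9 and Fmo1) were below the floor there. The median log2 difference of the 87 genes was 1.54 in knockout cells and 1.86 over the 84 measured in wild-type cells. The difference was larger in the knockout pair by at least 2-fold for 14 of the 84 genes and smaller for 9, with bounds included at their floored values. Without TNF, 13 of the 87 had a signal at least 2-fold lower and 5 at least 2-fold higher in knockout than in wild-type cells, and 69 lay within 2-fold. With TNF, 15 were at least 2-fold lower, 9 higher and 63 within 2-fold. These genes were selected on the knockout arrays, so the medians and counts that reuse those arrays are partly set by the selection. The same counts over all measured genes were not made, so no difference between genotypes is read from them.

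The lower genes overlapped less. Of the 24, 6 (Id2, Stard10, Myh10, Rflnb, Gast and Cacna1a) were at least 2-fold lower in wild-type cells too, 25% of the knockout list and 3.90% of the 154 wild-type genes (2.61%). Another 16 were within 2-fold at floored values and 2 were below the floor. Their median log2 difference was -1.16 in knockout and -0.61 in wild-type cells. Without TNF, 8 of the 24 had at least 2-fold more signal in knockout than in wild-type cells and 3 had less. A high unstimulated knockout signal helps a gene into this list, so that split and the medians are partly set by the selection. The wild-type counts depend on scaling: with equal medians they were 282 higher and 68 lower and the median log2 difference over all wild-type genes moved from -0.10 to 0.18, whereas in the knockout pair the same step gave 94 and 20. Knockout and wild-type cells were separate cultures, so genotype and culture cannot be told apart.

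**Figure D5:**
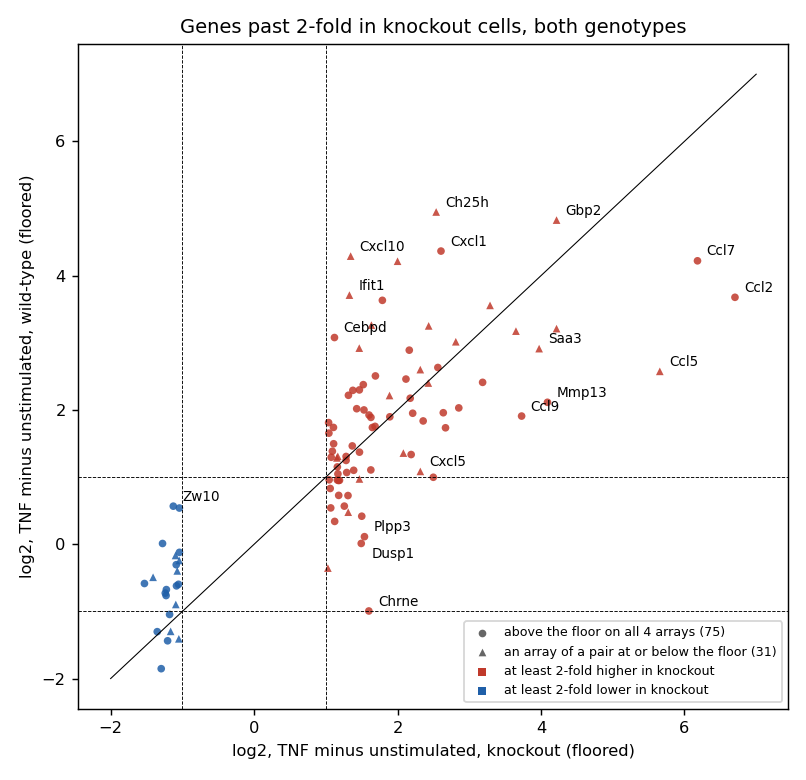
Log2 differences, TNF minus unstimulated, in knockout (x axis) and wild-type (y axis) cells of the genes past 2-fold in knockout cells and measured in both (floored values; solid line, equal differences; dashed lines, 2-fold). Circles are above the floor on all 4 arrays and triangles have an array at or below it; Ccl2, Ccl7 and Ccl5 lie to the right of the line, and Ch25h, Cxcl10 and Ifit1 above it.

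Different probe sets of one gene gave a measure of technical spread within the pair. For 1006 genes with more than 1 measured probe set the log2 differences spanned a median of 0.21, with a 90th percentile of 0.62, and 26 genes (2.58%) had probe sets more than 1 apart. Among the 87 higher genes 17 had another measured probe set. All others pointed the same way for 14 of them and all passed 2-fold for 7, including Nfkbia, Vcam1, Cxcl1, Cd47, Igfbp3, Cyp7b1 and Junb. The exceptions in direction were Chrne, Mvp and Saa2. Mvp was at 288 and 644 in the probe set used and at 333 and 283 in the other. Among the 24 lower genes 4 had another measured probe set, 3 pointed the same way and 1 (Helb) passed 2-fold. Probe sets of a gene share the RNA sample and the array, so this spread leaves out differences between cultures.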

How the data were processed

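Total RNA of 4 fibroblast cultures was labelled and hybridised to single-colour Affymetrix U74Av2 arrays, 1 array for each genotype and treatment, and samples were grouped by their titles. Each deposited value is a linear intensity (signal) per probe set. MAS5 is the tool named in the submitters' processing notes; no version or detection calls are given in the sources used here. The authors' columns share a trimmed mean of 500.3 after 2% is left out at each end, so they had been scaled before deposit and were not rescaled here.

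After removal of the 66 control probe sets, 10833 had 1 gene symbol in the platform annotation and were used, while 396 with several symbols and 1193 with none were not. Symbols were updated by Entrez identifier through the RefSeq table of GRCm38.p6, which matched 8237 of 8251 genes. Where a gene had more than 1 probe set (2073 genes), the one with the highest mean over all arrays stood for it. Signals were raised to a floor of 92.5 (40th percentile), converted to log2, and subtracted within each genotype. A floor understates the fold of dim genes. A gene counted as higher or lower at 2-fold (log2 of 1). With 1 array per group no test, error or p-value was computed, and precision is limited by that number. The counting step was checked on simulated data.

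The naming rule took the 25 highest and 20 lowest genes, up to 5 members past 2-fold of each of 54 lists (8 of them cell type markers) or the 2 largest where none passed, all members past 2-fold in the chemokine, NF-kB, death, GTPase and antigen presentation lists, and Xiap. Other genes named were chosen after their values were seen. The members and lists were chosen with earlier results of these data known. There were 10 alternatives, covering scaling, floor, filter and probe set choice. Loess used a span of 0.3 and the pseudocount alternative added 50. Promoter letters were searched in RefSeq windows. Python 3.11.15 with pandas 2.3.3, numpy 2.4.6, scipy 1.17.1, statsmodels 0.14.6 and matplotlib 3.10.9 was used.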

Additional observations from a re-analysis of the deposited data

Results flagged for a closer look

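Of the genes past 2-fold in knockout cells, 5 had a wild-type difference of the opposite sign, and none of these differences could be tested with 1 array per combination. Chrne, an acetylcholine receptor subunit gene, was at 136 without and 412 with TNF in knockout cells and at 328.5 and 165 in wild-type cells, a wild-type log2 difference of -0.99. Its second measured probe set was at 204 and 197.5 in knockout cells, so the higher value came from a single probe set. Zap70, a T cell kinase gene, was at 67.6 and 189 in knockout cells and had a wild-type log2 difference of -0.35. Its knockout difference is a bound and was only log2 0.343 with the mean of all probe sets. Nsmaf, which encodes a TNF receptor adaptor of the neutral sphingomyelinase pathway, was at 222 and 108 in knockout cells and had a wild-type log2 difference of 0.54. The knockout difference of Nsmaf fell short of 2-fold with equal medians, quantile normalization, loess, the added pseudocount and the mean of all probe sets. Zw10, a mitotic checkpoint gene, was at 213.5 and 97.8 in knockout cells and had a wild-type log2 difference of 0.57. Ptpru was 2.42-fold lower in knockout cells and had a wild-type log2 difference of 0.0115.

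Probe sets outside the main measurement, with no symbol or with several, also differed between the knockout arrays. Of 718 measured, 15 were past 2-fold in the higher and 4 in the lower direction with TNF. A probe set with no symbol was at 843 and 3192 in knockout cells and at 950.4 and 3128 in wild-type cells. Another was at 170.4 and 806 in knockout cells and at 22.3 and 104.5 in wild-type cells, and a further one was at 452.5 and 1830.3 against 65.4 and 216.5. An unnamed probe set of the lower group was at 300.4 and 42.4 in knockout cells and at 187 and 223 in wild-type cells.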

How the results depend on the processing

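No paired analysis was possible because each group has 1 array and the labels give no replicate numbers, and for the same reason no replicate could be left out. The 87 higher genes numbered 191 with the floor at the 20th percentile and 55 at the 60th, and between 65 and 107 under the other 8 alternatives. The 24 lower genes numbered 166 and 7 at those floors and between 16 and 27 under the others. By construction, the lower floor kept all 87 higher and all 24 lower genes among its calls. No gene past 2-fold in knockout cells reversed its direction under the 9 gene-level alternatives. Changes of floor, filter or pseudocount cannot reverse a direction, so only scaling, loess and the mean of all probe sets could have done so. Taking every probe set on its own, 4 of the 21 genes with more than 1 measured probe set (Saa2, Mvp, Chrne and Ica1) had a probe set of the opposite sign, with log2 differences of -0.86, -0.23, -0.05 and 0.38. Measured and past 2-fold under all 9 gene-level alternatives were 42 of the 87 and 3 of the 24. Equal medians, quantile normalization and loess kept all 87 higher genes and 20, 23 and 17 of the 24 lower ones. They gave a share of higher genes among those past 2-fold of 80.2% to 85.1%, against 78.4%. Requiring both arrays above the floor left 65 and 20, which by construction removed all 6 GTPase genes, Fas and Birc3. With log2 of the signal plus 50 in place of the floor, 77 of the higher and 12 of the lower genes stayed past 2-fold, and Gadd45g and Thbs2 did not. With the mean of all probe sets, 78 and 16 stayed, and Fgfr2 did not. In wild-type cells the split of 156 higher and 154 lower genes became 192 and 82 with quantile normalization and 282 and 68 with equal medians. Signals near or below 92.5 carry no order here, and the limit on precision is the single array per group.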
